A study of Mus musculus with 6 samples.

Results

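Histidine can be turned into histamine by histidine decarboxylase (Hdc) or broken down by histidine ammonia-lyase (Hal), and histamine is in turn inactivated by histamine N-methyltransferase (Hnmt) or sensed through its receptors. The set examined here holds 7 genes of these steps: Hdc, Hal, Hnmt, the receptor genes Hrh1 and Hrh2, and Slc15a3 and Slc15a4, which encode carriers of histidine and small peptides. It was formed by taking every probe set of the deposited values whose single gene symbol is one of these 7, which gave 10 of the 34958 probe sets with 1 symbol and 7 of 18194 genes. The genes were chosen by their signals in Gata6-KO against Gata6-WT, above all the loss of Hdc signal, so the differences of these 7 genes are given as a description without p-values.

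The cells were resident macrophages of the mouse peritoneal cavity, sorted as CD11b-high and MHCII-low/negative after lavage. Each of 3 Gata6-KO samples came from mice with a conditional (floxed) deletion of Gata6, a zinc finger transcription factor, and each of 3 Gata6-WT samples from wild type mice. All mice were 7 weeks old and described as sex-matched, every sample was a pool of 2 to 3 animals, and no treatment is named. For the promoter behind the deletion, the deleted exons and the strain, the sources used here give nothing.

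Histamine is stored in granules by mast cells and basophils and made on demand by some other myeloid cells, where its output follows the amount of Hdc, the sole enzyme that forms it. In macrophages it acts through G protein-coupled receptors: the H1 receptor (Hrh1) couples mainly to phospholipase C and calcium release, and the H2 receptor (Hrh2) to adenylyl cyclase. Hal opens the other route for histidine, toward urocanate and glutamate, and is best known from liver and skin.

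Values are MAS5 signals, linear intensities scaled by the authors to a common level per array. A signal of 47.5, the 40th percentile of the mean log2 values, was the level below which a probe set was not tested, and signals under it are called near background below. Differences are on the log2(signal + 16) scale, Gata6-KO minus Gata6-WT, with the standard error (SE) of a limma fit over all 27022 probe sets tested. A probe set or gene was called when its Benjamini-Hochberg adjusted p in that fit was under 0.05.

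The arrays and labels were checked first. The 3 arrays within each genotype had pairwise correlations of r = 0.964 to 0.972, and all 8 macrophage markers passed the filter. Among these Csf1r and Lyz2 had signals of 46856 to 84137 and Itgam, which encodes CD11b, 7567 to 13861 over all arrays, and these and Cd14 were not called. The other macrophage markers differed between genotypes: Adgre1, which encodes F4/80 (log2 -1.86, limma adjusted p = 0.00027), Fcgr1 (-2.80, adjusted p = 0.00019) and Cd68 (-0.41, adjusted p = 0.031) were lower in Gata6-KO and Mertk (0.43, adjusted p = 0.031) higher. With 1 array left out the calls of Cd68 and Mertk were kept only without Gata6-WT replicate 1 and Gata6-WT replicate 3 respectively (adjusted p 0.040 to 0.12 and 0.024 to 0.12). Relative to wild type, Gata6-KO arrays retained 40.8% to 43.5% of Gata6 signal at the dimmest of its 3 probe sets and 47.05% to 69.9% at the brightest, while the third overlapped between genotypes. Which of these lie in the deleted part is not known here. Replicate 1 of both genotypes carried male-type expression (Xist at most 112.8, Y-linked Eif2s3y, Kdm5d and Uty at 655.6 or more) and replicates 2 and 3 female-type expression (Xist at least 11158), so values are also given within each type. On the female-type arrays, which should hold no Y-linked RNA, those 3 Y-linked probe sets read 1.22 to 42.0, which shows what an unexpressed gene can read in these data.

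Because the deleted gene encodes a factor that binds GATA motifs, the sequence before the transcription start is shown for 3 genes of the set whose signal differed most in log2 terms. The 250 bases before the start were taken from RefSeq (GRCm38.p6), which had an entry for 6 of the 7 genes; Slc15a3 had none. Capitals mark the letters GATA with A or T before them and A or G after them, searched on both strands, written 5′ to 3′ along the gene.
Hdc (chr2:126618679-126618928, minus strand): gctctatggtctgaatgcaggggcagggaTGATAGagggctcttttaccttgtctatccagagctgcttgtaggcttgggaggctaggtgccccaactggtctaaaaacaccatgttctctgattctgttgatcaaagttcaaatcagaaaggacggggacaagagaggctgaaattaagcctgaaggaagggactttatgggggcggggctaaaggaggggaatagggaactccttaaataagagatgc
Hal (chr10:93488518-93488767, plus strand): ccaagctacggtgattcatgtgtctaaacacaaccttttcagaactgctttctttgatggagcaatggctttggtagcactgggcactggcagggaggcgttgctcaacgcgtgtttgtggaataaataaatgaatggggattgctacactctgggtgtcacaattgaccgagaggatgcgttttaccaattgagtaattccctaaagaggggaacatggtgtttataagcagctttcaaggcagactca
Hrh1 (chr6:114397686-114397935, plus strand, the most upstream of 4 listed starts): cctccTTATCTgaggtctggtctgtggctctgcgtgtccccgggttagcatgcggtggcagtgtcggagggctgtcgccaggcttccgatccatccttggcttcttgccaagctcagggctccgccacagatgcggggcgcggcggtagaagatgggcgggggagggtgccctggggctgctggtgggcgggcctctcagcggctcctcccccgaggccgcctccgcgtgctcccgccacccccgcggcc
Hdc had 1 match, TGATAG beginning 221 bases before the start. Hrh1 had 1 match in the window shown, AGATAA on the opposite strand, 245 bases before the start. Of its other 3 listed starts, 2 had a match of TGATAA, at 200 and 142 bases before the start, and 1 had none. The windows of Hal, Hnmt, Hrh2 and Slc15a4 held no match. Over all listed genes 29.75% had at least 1 match in a window of this length, so a match is common and describes the sequence only.

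Hdc, which removes the carboxyl group of histidine with the help of pyridoxal phosphate, had signal on every wild type array and was near background on every Gata6-KO array. At the brighter of its probe sets the Gata6-WT arrays read 1746, 1663 and 2369 (mean 1926 ± 386, SD, n = 3) and the Gata6-KO arrays 1.82, 19.2 and 20.1 (13.7 ± 10.3). The lowest wild type array thus lay far above the highest Gata6-KO array. The Gata6-KO signals lay within the range of the Y-linked probe sets on female-type arrays.

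The log2 difference of Hdc was -6.08 ± 0.29 (SE). Since the Gata6-KO arrays were near background, its size depends on the low end of the scale: it was -7.48 with a pseudocount of 1 and -4.67 with 64. With every signal under 47.5 set to that level, Hdc was at least 30.2-fold lower in Gata6-KO. The second Hdc probe set, on the same arrays, had 812.2, 473.9 and 955.1 in Gata6-WT and 11.6, 7.25 and 7.22 in Gata6-KO. Its log2 difference was -4.90 ± 0.30, at least 11.6-fold lower by the same bound. At the first probe set the difference was -6.26 to -5.75 with 1 array left out. It was -6.63 in the male-type arrays (1 against 1) and -5.81 in the female-type arrays (2 against 2).

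**Figure D1:**
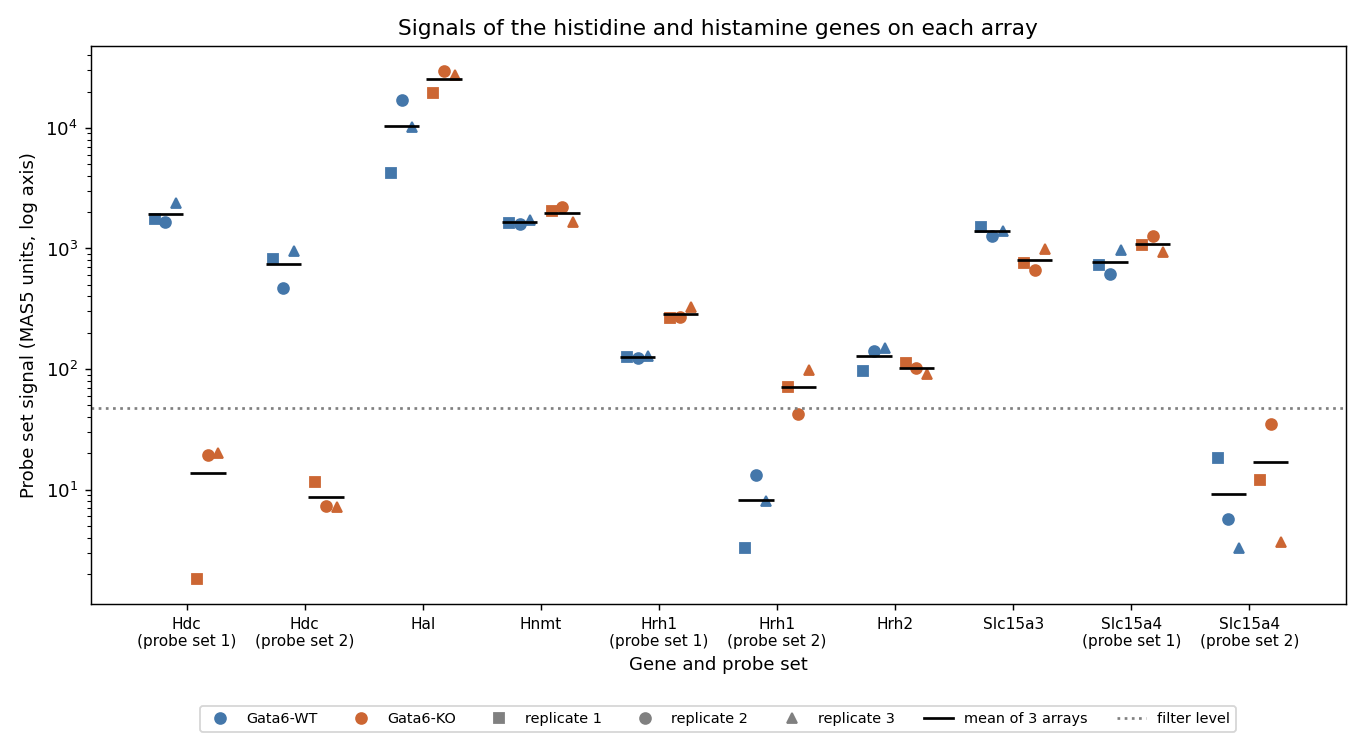
Signal of each probe set of the 7 genes on each array (log axis, MAS5 units), with Gata6-WT in blue and Gata6-KO in orange, marker shape for the replicate number, a black line for the mean of 3 arrays and a dotted line for the filter level of 47.5. Both Hdc probe sets lie below the filter level on all 3 Gata6-KO arrays, Hal spreads from 4226 to 16924 in Gata6-WT, and the wild type arrays of Hrh1 probe set 1 nearly coincide.

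Hal, the enzyme that deaminates histidine and so competes with Hdc for its substrate, had the opposite direction. The Gata6-WT arrays read 4226, 16924 and 10192 (10447 ± 6353) and the Gata6-KO arrays 19574, 29479 and 27378 (25477 ± 5219). The groups did not overlap, but the wild type arrays spread widely, with a coefficient of variation of 60.8% against 20.5% in Gata6-KO. Replicate 1, the male-type array, was the lowest in each genotype.

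The log2 difference of Hal was 1.48 ± 0.41 (SE), and whether it was called depended on the fit. The call was kept without Gata6-WT replicate 1 or 2 and lost without Gata6-KO replicate 1 (log2 1.66), Gata6-KO replicate 2 (1.36), Gata6-KO replicate 3 (1.41) or Gata6-WT replicate 3 (1.57). The difference was 2.21 in the male-type arrays and 1.11 in the female-type arrays, and without Gata6-WT replicate 1 it was 0.93. A fit that modelled replicate 1 apart from the others gave an SE of 0.25 and kept the call. The direction was the same in each of these.

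Hnmt, which inactivates histamine inside cells by methylation, was measured well above background in both genotypes and was not called. It read 1629, 1608 and 1736 in Gata6-WT (1658 ± 69.0) and 2027, 2215 and 1651 in Gata6-KO (1964 ± 287). The Gata6-KO array of replicate 3 lay inside the wild type range, and the log2 difference was 0.23 ± 0.13 (SE), from 0.14 to 0.35 with 1 array left out. It was 0.31 in the male-type and 0.19 in the female-type arrays.

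The receptor gene Hrh1 was higher in Gata6-KO. At the probe set that was tested, Gata6-WT arrays read 124.8, 122.7 and 127.4 (125.0 ± 2.36) and Gata6-KO arrays 267.2, 270.5 and 324.3 (287.3 ± 32.1). The Gata6-WT signals were low, not far above the array medians of 79.7 to 88.5. The wild type arrays nearly coincided and all Gata6-KO arrays lay above them, with a log2 difference of 1.10 ± 0.19 (SE), 1.01 to 1.15 with 1 array left out, 1.01 in the male-type and 1.15 in the female-type arrays. The other Hrh1 probe set failed the filter. It read 3.26, 13.3 and 8.04 in Gata6-WT, all near background, and 71.4, 42.2 and 98.2 in Gata6-KO, of which the second was also under 47.5. Its groups did not overlap either and pointed the same way.

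Hrh2, the second histamine receptor gene, read 96.2, 140.6 and 149.7 in Gata6-WT (128.8 ± 28.6) and 111.8, 101.8 and 91.4 in Gata6-KO (101.7 ± 10.2), low signals on all arrays. The groups overlapped, the log2 difference was -0.28 ± 0.25 (SE), and it was not called. Its sign differed between the types, at 0.19 in the male-type and -0.52 in the female-type arrays.

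Slc15a3 and Slc15a4 encode proton-coupled carriers that move histidine and di- and tripeptides out of endosomes and lysosomes. Slc15a3 read 1501, 1264 and 1402 in Gata6-WT (1389 ± 119) and 762.9, 664.1 and 992.7 in Gata6-KO (806.6 ± 168.6). All Gata6-KO arrays lay below the wild type arrays, with a log2 difference of -0.79 ± 0.16 (SE). Its call was lost without Gata6-KO replicate 2 (log2 -0.66) and with replicates 2 and 3 of both genotypes alone (-0.70). In the male-type arrays the difference was -0.96.

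Slc15a4 had a difference of the opposite sign and was not called. It read 726.7, 610.3 and 964.4 in Gata6-WT (767.1 ± 180.5) and 1064, 1277 and 941.3 in Gata6-KO (1094 ± 170), with 1 overlapping array on each side and a log2 difference of 0.52 ± 0.19 (SE). Without Gata6-WT replicate 3, the highest wild type array, it was called (log2 0.69). Within the types the difference was 0.54 (male-type) and 0.51 (female-type). Its second probe set was near background on all 6 arrays (3.29 to 34.9).

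Of the 7 genes 4 were thus called, 2 higher (Hal and Hrh1) and 2 lower (Hdc and Slc15a3), where 13.1% of all 12511 genes tested were called, 5.61% higher and 7.46% lower. The groups did not overlap for the same 4 genes, against 34.4% of all genes. The median log2 difference of the 7 was 0.23, beside -0.04 over all genes tested. Since the contrast served to put the set together, nothing is read from these shares. Of the 10 probe sets 8 passed the filter; the other two were the second ones of Hrh1 and Slc15a4.

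For each called gene, the 3 genes with the most similar profile were found by the root mean square difference of log2 values over the 6 arrays, centred on the wild type mean, as a description. For Hdc these were Garnl3 (1.08), Pi16 (1.20) and Ocln (1.21), none of them close, since the Gata6-KO arrays of these genes kept more signal. Garnl3 kept 10.6, 266.3 and 167.2 in Gata6-KO. The profile of Hrh1 had near matches in Raph1 (0.07), Ackr4, an atypical chemokine receptor gene (0.07), and the chemokine gene Ccl6 (0.09). Those nearest to Hal were Lysmd2 (0.30), the phosphate carrier gene Slc34a3 (0.30) and Pltp, a phospholipid transfer protein gene (0.34). In Gata6-WT Lysmd2 read 7.39, 70.4 and 13.7 and Slc34a3 21.6, 64.9 and 38.0, mostly near background. Lysmd2 was not called (limma adjusted p = 0.12). Pltp shared with Hal the low replicate 1 in wild type, at 14889 against 31813 and 25042. The profile of Slc15a3 was nearest to Trim2 (0.09), Arhgap35 (0.11) and Bsg (0.12).

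Mast cells and basophils, which hold much Hdc, were looked for next, because in bulk RNA fewer cells of a type and less RNA per cell cannot be told apart. Of 11 measured markers 7 failed the filter. Among these Fcer1a, Ms4a2, Mcpt8, Kit and Mcpt4 read 1.47 to 61.7 over all arrays and Mrgprb1 3.60 to 56.8, while the tryptase gene Tpsb2 read 16.8, 30.3 and 10.3 in Gata6-WT and 20.4, 89.1 and 105.5 in Gata6-KO (log2 1.18, not tested). Limma called 0 of the 4 tested, with 2 at an unadjusted p under 0.05. These were the granule protease genes Cpa3, at 250.3, 284.5 and 305.1 in Gata6-WT and 125.1, 144.6 and 206.3 in Gata6-KO (log2 -0.78 ± 0.22 SE, limma adjusted p = 0.051), and Cma1, at 157.4, 184.9 and 252.4 against 125.2, 26.1 and 87.1 (log2 -1.31 ± 0.42, limma adjusted p = 0.083). Both were lower on all Gata6-KO arrays, by far less than Hdc. The other tested markers, Tpsab1 and Gata2, differed by log2 -0.40 and 0.24. The summed marker signal was 836 to 948 in Gata6-WT and 611 to 748 in Gata6-KO. The part of such cells in the Hdc difference was not tested.

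**Figure D2:**
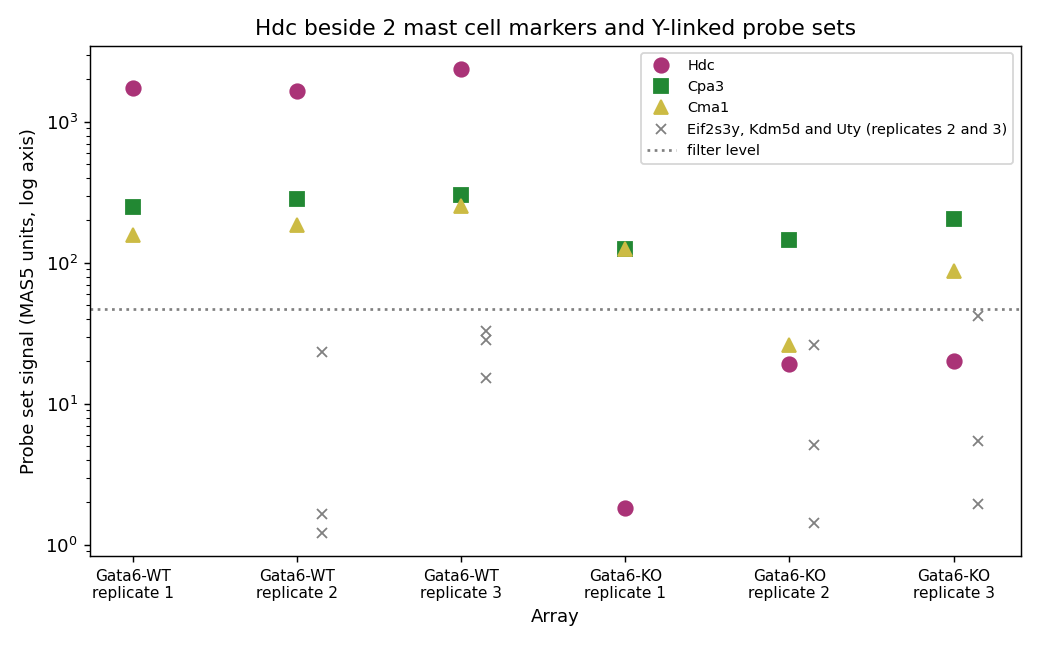
Signal of Hdc (probe set 1), of the mast cell protease genes Cpa3 and Cma1, and of the Y-linked probe sets of Eif2s3y, Kdm5d and Uty on the arrays of replicates 2 and 3, for each array on a log axis in MAS5 units. Hdc reads 1663 to 2369 in Gata6-WT and falls among the Y-linked signals in Gata6-KO. Cpa3 reads 250.3 to 305.1 in Gata6-WT and 125.1 to 206.3 in Gata6-KO, and Cma1 reads 157.4 to 252.4 and 26.1 to 125.2.

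Few markers of other cell types passed the filter. Limma called 1 of 2 tested neutrophil markers and 1 of 2 tested dendritic cell markers, both lower, beside 13.1% of all genes tested. Of 7 measured neutrophil markers the alarmin gene S100a8 was lower in Gata6-KO (847.2 to 1484 against 292.6 to 663.5, log2 -1.20 ± 0.29 SE, limma adjusted p = 0.029, and up to 0.089 with 1 array left out, lost without Gata6-KO replicate 2 or 3 or Gata6-WT replicate 1 or 3), while 5 were below the filter. The other 6 went both ways: S100a9, Cxcr2, Ltf and Camp had log2 differences of 0.67, 0.86, 0.26 and 0.14 at low signals, Mmp8 -0.40 and the tested Ngp -0.11. The lectin gene Cd209a, at 1109, 583.6 and 280.8 in Gata6-WT and 100.8, 92.1 and 158.1 in Gata6-KO, was lower among 5 dendritic cell markers (log2 -2.17, limma adjusted p = 0.010). Its call was lost in the female-type arrays alone and without the mean-variance trend (adjusted p = 0.053 in each). Other dendritic cell markers went the other way. Xcr1, Flt3 and Ccr7, all below the filter, had log2 differences of 0.89, 0.71 and 0.11, and the tested Zbtb46 had 0.24. All 5 eosinophil and all 5 T and NK cell markers failed the filter. The eosinophil marker Siglecf read 32.6 to 89.0 in Gata6-WT and 3.59 to 30.5 in Gata6-KO (log2 -1.15). Prg2, Il5ra, Ccr3 and Epx went the other way, with log2 differences of 0.81, 0.63, 0.25 and 0.18. The T and NK cell markers had log2 differences of -0.31 to 0.38. Limma called 0 of 3 tested B cell markers and 0 of 1 tested mesothelial and stromal marker, with 0 at an unadjusted p under 0.05. Those of smallest p were Blk (log2 0.95, limma adjusted p = 0.25), Ms4a1 (log2 0.49, adjusted p = 0.38) and Krt8 (log2 0.45, adjusted p = 0.39). Below the filter, the B cell markers Cd79b and Cd79a had log2 differences of -1.09 and -0.67. Mesothelial and stromal markers there went both ways. Pdgfra, Krt19, Msln, Dcn and Lrrn4 had -0.90, -0.64, -0.49, -0.27 and -0.17, and Col1a1 and Upk3b had 0.48 and 0.14. The summed signals of the eosinophil, B cell, T and NK cell, dendritic cell, and mesothelial lists overlapped between genotypes. For dendritic cells the sum was 490 to 1278 in Gata6-WT and 262 to 539 in Gata6-KO. That of the neutrophil list, most of it S100a8, was 991 to 1702 in Gata6-WT and 465 to 868 in Gata6-KO. Their part in the differences of the 7 genes was not tested.

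Beyond the 7 genes, 82 genes that surround these steps were listed from textbook knowledge, of which 75 were measured and 59 tested. Since these lists were drawn up with earlier results of these data known, nothing is read from their share of calls. Limma called 12 of the 59 (20.3%), 6 higher and 6 lower, beside 13.1% of all genes tested, with a median log2 difference of -0.003 (-0.04 over all genes). The count was 5 of 59 with replicates 2 and 3 of both genotypes alone, where 7.3% of all genes were called. With 1 array left out it was lowest, at 7. This was without Gata6-KO replicate 2 (of 58 tested, beside 8.52% of all genes) or Gata6-WT replicate 3 (of 59, beside 10.1%).

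Among 10 tested enzymes of further histamine and histidine turnover, 1 was higher and 0 lower, beside 5.61% and 7.46% of all genes. Aldh7a1, an aldehyde dehydrogenase that oxidises a range of aldehydes, rose from 601.8 ± 103.3 to 1297 ± 215 (log2 1.09 ± 0.17 SE, limma adjusted p = 0.0039), a call kept without any 1 array. Diamine oxidase (Aoc1), which breaks down histamine outside cells, read 20.4 to 42.9 in Gata6-WT, near background, and 45.0 to 136.7 in Gata6-KO (log2 1.24 ± 0.43, limma adjusted p = 0.11). Maob, a monoamine oxidase gene that handles the methylated product of Hnmt, was at 58.9 to 149.9 against 20.0 to 48.7 (log2 -1.12 ± 0.41, adjusted p = 0.12). Neither passed the threshold, and the Maob signals in Gata6-KO were mostly near background. The groups of each did not overlap, as for 34.4% of all genes. This also held for Aldh3a2 and Hars2 of this list, which were not called. The enzymes that follow Hal, namely Uroc1, Amdhd1 and Ftcd, failed the filter, with signals of 3.48 to 87.3. Histidyl-tRNA synthetase genes Hars and Hars2, which lead histidine into protein, were not called (log2 0.09 and -0.38).

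Enzymes related to Hdc by their pyridoxal phosphate chemistry, or that handle this cofactor, were not called. Limma called 0 of 8 tested, with 1 at an unadjusted p under 0.05. The latter was Odc1, the ornithine decarboxylase that starts polyamine synthesis (log2 -0.56 ± 0.21 SE, limma adjusted p = 0.13), and the next was Gad2 (log2 0.59, limma adjusted p = 0.21). Ddc, the aromatic amino acid decarboxylase closest to Hdc, failed the filter at 2.01 to 69.2. Pyridoxal kinase (Pdxk), which makes the cofactor, differed by log2 0.02 ± 0.14.

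In the supply of methyl groups that Hnmt draws on, 1 of 5 tested genes was lower, beside 7.46% of all genes. Adenosine kinase (Adk), which clears the adenosine left after methyl transfer, fell from 7988 ± 302 to 4655 ± 183 (log2 -0.78 ± 0.10 SE, limma adjusted p = 0.00092), a call kept without any 1 array; 2 of its 4 tested probe sets were called, both lower. Ahcy, which splits S-adenosylhomocysteine, differed by log2 -0.14 ± 0.11.

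Among carriers 3 of 10 tested were higher and 0 lower, where 5.61% of all genes were higher and 7.46% lower. Slc3a2, the shared heavy chain of several amino acid exchangers, rose from 1551 ± 258 to 2609 ± 504 (log2 0.74 ± 0.17 SE, limma adjusted p = 0.022). Its partners Slc7a8, a light chain that carries neutral amino acids including histidine, and Slc7a7, a light chain for cationic and neutral amino acids, rose by log2 0.62 ± 0.14 (limma adjusted p = 0.023) and 0.56 ± 0.14 (limma adjusted p = 0.035). For Slc7a7 1 of 2 tested probe sets was called. The groups did not overlap for any of the 3 genes, as for 34.4% of all genes.

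These carrier calls stood near the threshold. That of Slc3a2 was lost without Gata6-KO replicate 3 or Gata6-WT replicate 1 (adjusted p up to 0.070), that of Slc7a8 without Gata6-KO replicate 2 or Gata6-WT replicate 1 or 3 (up to 0.087), and that of Slc7a7 without any 1 of the 6 arrays (0.055 to 0.11). After median scaling Slc7a7 and Slc7a8 were not called. The histamine carriers that load vesicles (Slc18a2) or take up amines (Slc22a2) failed the filter, and Slc29a4, another amine carrier, differed by log2 -0.02 ± 0.15. Of the relatives of Slc15a3 and Slc15a4, Slc15a2 was measured (240.4 to 669.4) and not called, and Slc15a1 and Slc15a5 failed the filter.

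Of the other histamine receptors Hrh4 failed the filter and Hrh3 was not called; limma called 0 of the 1 tested, with 0 at an unadjusted p under 0.05. Hrh3 read 68.5, 68.6 and 6.11 in Gata6-WT and 106.3, 102.0 and 90.7 in Gata6-KO, signals close to background. Downstream of the receptors 4 of 18 tested genes were lower and 0 higher, where 7.46% of all genes were lower and 5.61% higher. Plcb4, a phospholipase C isoform activated by Gq proteins, read 1317, 1275 and 1381 in Gata6-WT and 162.9, 302.7 and 222.4 in Gata6-KO (log2 -2.49 ± 0.20 SE, limma adjusted p = 8.8e-05), a call kept without any 1 array. The calcium channel gene Itpr3 fell by 0.68 ± 0.17 on the log2 scale (limma adjusted p = 0.034), and this call was kept only without Gata6-WT replicate 1 (0.047 to 0.11 with 1 array left out).

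The adenylyl cyclase genes Adcy6 and Adcy4, which make the second messenger of the H2 receptor, were lower as well. Adcy6 read 356.5, 270.4 and 353.5 in Gata6-WT and 15.4, 95.6 and 97.3 in Gata6-KO (log2 -2.21 ± 0.45 SE, limma adjusted p = 0.014). Adcy4 read 296.1, 382.8 and 572.0 against 23.7, 160.6 and 100.4 (log2 -2.16 ± 0.49, limma adjusted p = 0.021), and its call was lost without Gata6-WT replicate 2 or 3 (adjusted p up to 0.073). In both genes Gata6-KO replicate 1 was near background and the lowest array. Adcy7, another isoform, differed by log2 0.13 ± 0.11. The G protein gene Gnaq differed by log2 0.26 ± 0.10 (limma adjusted p = 0.14) at the probe set with the highest signal, while 3 of its 7 tested probe sets were called higher, and Gnas by -0.15 ± 0.12.

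Slc15a3 and Slc15a4 act at the endosomal membrane beside nucleic acid receptors and supply bacterial peptides to NOD proteins. Of 7 tested genes there 2 were higher and 1 lower, beside 5.61% and 7.46% of all genes. Unc93b1, which escorts Toll-like receptors to endosomes, rose from 2597 ± 335 to 4095 ± 277 (log2 0.66 ± 0.12 SE, limma adjusted p = 0.0083). Tlr7, a receptor of single-stranded RNA, rose from 1791 ± 240 to 2779 ± 297 (log2 0.63 ± 0.13, limma adjusted p = 0.016), at 1 of its 3 tested probe sets, and its call was lost without Gata6-KO replicate 1 or 2 (adjusted p up to 0.063). The peptidoglycan sensor gene Nod1 fell by 0.48 ± 0.12 on the log2 scale (limma adjusted p = 0.030), and this call was lost without any 1 of the 6 arrays (0.058 to 0.10). Tasl, which binds Slc15a4, and its effector Irf5 differed by log2 0.23 ± 0.17 and -0.02 ± 0.11 and were not called.

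In the female-type arrays alone, of the 12 calls among the surrounding genes those of Slc3a2, Slc7a7, Slc7a8, Itpr3, Tlr7, Unc93b1 and Nod1 were lost (adjusted p 0.074 to 0.19), and those of Aldh7a1, Adk, Plcb4, Adcy4 and Adcy6 were kept.

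**Figure D3:**
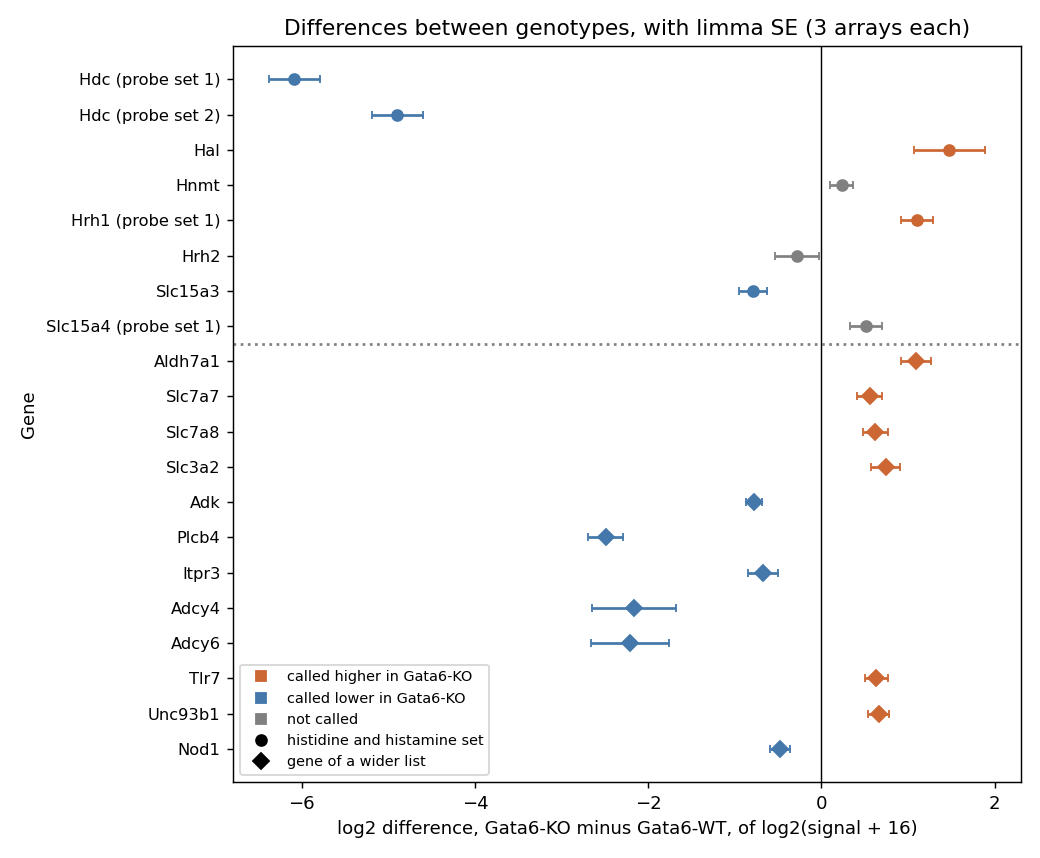
Difference between Gata6-KO and Gata6-WT in log2(signal + 16), with limma SE, for the 8 tested probe sets of the 7 genes (circles, above the dotted line) and the 12 called genes of the surrounding lists (diamonds), n = 3 arrays per genotype. Hdc has a difference of -6.08, beyond that of any other gene shown, and the next in size among the surrounding genes is Plcb4 at -2.49.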

How the data were processed

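RNA of 3 Gata6-KO and 3 Gata6-WT pools was measured on 1 array each. The authors deposited linear intensities for 45101 probe sets; MAS5 and affy are named in the submitters' processing notes, with no version. The mean without the top and bottom 2% was 500 on each array. Low MAS5 signals are noisy, no detection calls were used, and the number of arrays limits the precision.

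Symbols came from the array annotation. Signals were converted to log2(signal + 16), 64 control probe sets were left out, and probe sets with a mean above the 40th percentile entered a limma 3.58.1 fit (R 4.3.3, eBayes with a trend, two-sided), adjusted over all tested. The tested probe set of highest mean stands for a gene. The fit was tested on simulated data. The genes and lists were chosen with earlier results of these data known. Named were all 7 genes, from each list up to 4 called genes or else the 2 of smallest p, further list genes with their values, and the 3 nearest profiles. Alternatives were other pseudocounts, filters and scalings, no trend, array weights, a replicate block, a term for replicate 1, replicates 2 and 3 alone, each array left out, and averaging the probe sets of a gene. Figures were drawn with matplotlib 3.10.9.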

Additional observations from a re-analysis of the deposited data

How the results depend on the processing

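With 3 arrays per genotype, and with no detection calls, differences near background cannot be sized. The 7 genes were chosen by this contrast, so their calls across settings describe the fits and support nothing. Of 18 alternatives Hdc and Hrh1 were called in 18, Slc15a3 in 15, Hal in 9, Slc15a4 in 2 (array weights, and without Gata6-WT replicate 3) and Hnmt in 0. Hrh2 was called in 0 of 17, since it failed the filter at the 60th percentile. No direction of the 7 genes reversed in these alternatives, although Hrh2 was higher in Gata6-KO in the male-type arrays (log2 0.19). Without the mean-variance trend 1459 probe sets were called in place of 2916, and 6.63% of all genes in place of 13.1%. Of the 7 genes 2 were called in place of 4 (Hdc and Hrh1), and of the surrounding genes 3 in place of 12. With replicates 2 and 3 alone 1615 probe sets, 3 of the 7 genes and 5 surrounding genes were called, beside 7.3% of all genes. Leaving out 1 array gave 1851 to 2465 probe sets, 2 to 4 of the 7 genes and 7 to 9 surrounding genes. The share of all genes called was then 8.52% to 10.6%. The cause of these shifts was not tested. Same-numbered arrays deviated together only weakly (r = 0.13, 0.07 and 0.07, though each array correlated best with its own number), so the numbers were not taken as pairs. With the replicate block 3076 probe sets, 4 of the 7 genes and 13 surrounding genes were called, beside 13.6% of all genes.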
